A study of Mus musculus with 9 samples.

Results

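The RNAs described here are circular RNAs made from the genes of drug and aldehyde metabolism enzymes in mouse liver. A circular RNA, or ring, forms when the end of an exon is joined backwards to the start of the same or an earlier exon, and it is recognised by reads that cross this back-splice junction. A ring was included when the table named 1 host gene for it and that gene belonged, by the start of its symbol, to the families Cyp, Ugt, Ces, Gst, Sult, Aox, Fmo, Ephx, Aldh, Adh or Akr. This gave 107 of 11312 rings (0.946%), from 44 of 3929 host genes or gene groups. Of these rings, 103 were classed as exonic and 4 as intronic.

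The livers came from wild-type C57 BL6 mice aged 8 weeks, in 3 groups of 3 libraries. The first group received 300 µg/kg dmPGE2, a stable analogue of prostaglandin E2, 1 hour before 500 mg/kg acetaminophen (the dmPGE2+APAP group). The second received 500 mg/kg acetaminophen (the APAP group), and the third received saline (the control group). Both injections were intraperitoneal, and tissue was taken 6 hours after APAP. The labels number no animals or cultures, and a p-value here reflects only how much these libraries vary.

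Drug metabolism in hepatocytes is usually described as oxidation by cytochromes P450 (Cyp), flavin monooxygenases (Fmo) and aldehyde oxidases (Aox), hydrolysis by carboxylesterases (Ces) and epoxide hydrolases (Ephx), and conjugation by Ugt, Gst and Sult enzymes. Aldehyde dehydrogenases (Aldh), alcohol dehydrogenases (Adh) and aldo-keto reductases (Akr) convert alcohols, aldehydes and ketones. Acetaminophen is cleared mainly by glucuronidation and sulfation, while Cyp2e1, with help from Cyp1a2 and Cyp3a enzymes, turns part of it into the reactive quinone imine that depletes glutathione. Several of these enzymes lie mainly in pericentral hepatocytes, the cells around the central vein where acetaminophen injury begins.

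The back-splice junctions of 10 abundant enzyme rings are printed because they are what the reads identify. The Sult2a8 ring and the Cyp2c70 rings novel_circ_0006253 and novel_circ_0006254, also abundant, are named only, since their ends do not both lie at annotated exon ends. Each line gives the last 20 bases of the ring's final exon in lower case, followed in capitals by the first 20 bases of its first exon, read 5′ to 3′ from the GENCODE M21 transcripts of build GRCm38 with coordinates of the whole ring.
Ces1c novel_circ_0013974, exons 8 to 12, chr8:93100654-93108573, minus strand: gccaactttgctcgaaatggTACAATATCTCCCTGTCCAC
Cyp2c70 novel_circ_0006258, exons 4 to 7, chr19:40160555-40167623, minus strand: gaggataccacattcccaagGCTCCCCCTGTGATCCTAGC
Cyp2c70 novel_circ_0006259, exons 4 to 6, chr19:40164352-40167623, minus strand: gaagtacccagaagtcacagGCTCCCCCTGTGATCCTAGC
Fmo5 novel_circ_0009559, exons 3 to 7, chr3:97635511-97645920, plus strand: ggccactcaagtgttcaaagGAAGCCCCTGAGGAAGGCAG
Cyp1a2 novel_circ_0014539, exons 4 to 6, chr9:57678987-57680339, minus strand: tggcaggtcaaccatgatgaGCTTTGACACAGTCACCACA
Cyp3a13 novel_circ_0010983, exons 5 to 9, chr5:137905530-137911952, minus strand: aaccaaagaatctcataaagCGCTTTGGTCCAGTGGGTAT
Cyp7b1 novel_circ_0009200, exons 2 to 4, chr3:18096523-18103837, minus strand: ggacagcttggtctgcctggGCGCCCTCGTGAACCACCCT
Aox1 novel_circ_0007325, exons 11 to 16, chr1:58059035-58065366, plus strand: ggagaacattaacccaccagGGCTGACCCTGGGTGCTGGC
Aldh16a1 novel_circ_0013042, exons 15 to 16, chr7:45142780-45143298, minus strand: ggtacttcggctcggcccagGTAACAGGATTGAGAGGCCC
Akr1c20 novel_circ_0002717, exons 2 to 7, chr13:4507681-4514428, minus strand: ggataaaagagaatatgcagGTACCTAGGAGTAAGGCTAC
The capitals of both Cyp2c70 lines are the same, since both rings begin at exon 4. The 20 lower-case bases of the Ces1c ring also occur in transcripts of Ces1b, and those of the Akr1c20 ring in transcripts of Akr1c6, so only the capital side separates each from its near copy. Of 93 enzyme junctions searched, 18 had at least 1 side in another gene, and 1, a Cyp3a25 ring that was not tested, had both sides in Cyp3a59.

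Depth set what could be seen. The back-splice total per library lay between 69268 and 154449 reads in 8 libraries, while control 3 held 4362 reads, 25.7-fold below the median of the others. In control 3 a single read was worth 229 CPM (reads per 1000000 back-splice reads of the library). A count of 0 there allowed up to 688 CPM (3 counts), against 19.4 to 43.3 CPM in the other libraries, counting error only. The smallest count above 0 in any library was 2, so a listed 0 may stand for a single read. All bounds given for a 0 may then be too low. Of 8 hepatocyte markers 6 had a ring, Alb, Apob and Cps1 among them, as did 5 of 6 sinusoidal endothelial cell markers. Fewer were found for Kupffer cells (1 of 6), cholangiocytes (1 of 5), neutrophils and lymphocytes (1 of 6) and stellate cells (0 of 5). Cps1 had 863 reads and Alb 134, beside 1143 for the endothelial marker Mrc1 and 670 for the Kupffer cell marker Adgre1. Because control 3 carries a large weight in CPM, control values below are given for controls 1 and 2 (n = 2) with control 3 beside them. The fits of back-splice reads include all 9 libraries unless stated.

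Enzyme rings made up a small share of circular RNA, between 0.733% and 0.972% in the deep libraries. They held 0.921% ± 0.0134 of back-splice reads in the dmPGE2+APAP group (SD, n = 3), 0.830% ± 0.126 in the APAP group (n = 3) and 0.939% ± 0.0433 in controls 1 and 2 (n = 2). APAP 1 (0.784%, 95% Wilson interval 0.733% to 0.838%) and APAP 3 (0.733%, 0.673% to 0.800%) had intervals below those of all other deep libraries. APAP 2 was the highest deep library, at 0.972%. Control 3 stood at 2.13% (93 of 4362 reads, 95% Wilson interval 1.74% to 2.60%), the highest value of the 9. The 8277 enzyme reads were concentrated in few genes, with 34.5% in Ces1c and Cyp2c70 and 90.0% in 12 hosts.

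The families differed widely in how many rings they gave. The Cyp family had 21 hosts with 46 rings and 3358 reads, and the 5 Aldh hosts had 22 rings and 881 reads. Carboxylesterases had 4 hosts and 1520 reads, nearly all from Ces1c, and aldehyde oxidases had 12 rings from Aox1 and Aox3. Fmo5 was the only Fmo host and Sult2a8 the only Sult host. The 4 Ugt hosts together had 34 reads, the Ephx hosts Ephx2 and Ephx4 had 11, and no ring was assigned to a Gst or Adh gene alone. A ring inside the Ugt1a cluster, novel_circ_0007606, which the table gives to several genes jointly and which therefore fell outside the rule, had 83, 57 and 104 reads in dmPGE2+APAP livers, 60, 77 and 46 in APAP livers and 110, 105 and 15 in control livers.

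Among P450 hosts, Cyp2c70, Cyp3a13 and Cyp1a2 had the most reads. Cyp2c70, which makes muricholic acids in mice, had 173, 189 and 193 reads in dmPGE2+APAP livers, 131, 159 and 79 in APAP livers and 251, 198 and 38 in control livers. Scaled to depth this was 1675 ± 236 CPM in the dmPGE2+APAP group, 1266 ± 165 in the APAP group and 1574 ± 71.9 in controls 1 and 2, with 8712 in control 3. The APAP libraries lay below all 3 controls, and the dmPGE2+APAP libraries overlapped both other groups. Cyp7b1, the oxysterol 7-alpha-hydroxylase of the alternative bile acid pathway, had 17, 14 and 49 reads in dmPGE2+APAP livers, 49, 31 and 22 in APAP livers and 42, 57 and 6 in control livers. The third dmPGE2+APAP library was well above the others of its group, so the groups overlapped. Cyp27a1, the mitochondrial sterol 27-hydroxylase, had 21, 4 and 16 reads in dmPGE2+APAP livers, 0, 15 and 0 in APAP livers and 0, 17 and 0 in control livers, all from 1 ring.

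Cyp3a13 and Cyp3a25, P450s of the drug-oxidising 3a subfamily, had 9 and 4 rings. Cyp3a13 had 83, 37 and 50 reads in dmPGE2+APAP livers, 54, 79 and 27 in APAP livers and 143, 91 and 0 in control livers. Its mean was 499 ± 167 CPM in the dmPGE2+APAP group, 536 ± 169 in the APAP group and 813 ± 160 in controls 1 and 2. The 0 of control 3 allows up to 688 CPM, which is below controls 1 and 2 at 926 and 700 CPM. Cyp3a25 was lower and scattered, with 46, 6 and 20 reads in dmPGE2+APAP livers, 0, 16 and 11 in APAP livers and 51, 23 and 0 in control livers. Cyp1a2, a P450 that oxidises acetaminophen and caffeine, had 1 ring with 59, 45 and 80 reads in dmPGE2+APAP livers, 51, 50 and 24 in APAP livers and 111, 70 and 0 in control livers. In CPM all 3 APAP libraries lay below controls 1 and 2, and the dmPGE2+APAP libraries overlapped both. The 0 of control 3 allows up to 688 CPM, beside 719 and 539 CPM in controls 1 and 2. Cyp2j5, an arachidonic acid epoxygenase, had 8 rings and 171 reads, the highest value being 69 reads in control 1.

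Among the other oxidising enzymes, Fmo5, a flavin enzyme with Baeyer-Villiger activity, had 77, 65 and 82 reads in dmPGE2+APAP livers, 84, 118 and 29 in APAP livers and 104, 51 and 2 in control livers. The 3 APAP libraries spread more (757 ± 330 CPM) than the 3 dmPGE2+APAP libraries (669.7 ± 39.6 CPM). Aox1 and Aox3 are molybdenum enzymes that oxidise aldehydes and aromatic nitrogen heterocycles. Aox3 had 43, 71 and 66 reads in dmPGE2+APAP livers, 19, 69 and 29 in APAP livers and 47, 33 and 0 in control livers, so in CPM every dmPGE2+APAP library lay above controls 1 and 2, while the 0 of control 3 allows up to 688 CPM. Aox1 had 40, 34 and 15 reads in dmPGE2+APAP livers, 31, 27 and 26 in APAP livers and 45, 22 and 9 in control livers, and its groups overlapped.

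Among rings assigned to 1 gene alone, hydrolysis and conjugation were each carried by 1 abundant host. The joint Ugt1a ring given above is not counted here. Ces1c, the carboxylesterase secreted into mouse plasma, had 212, 156 and 190 reads in dmPGE2+APAP livers, 88, 194 and 116 in APAP livers and 220, 241 and 29 in control livers. Its first APAP library, at 88 reads, was the low one, and the groups overlapped at 1663 ± 92.6 CPM in the dmPGE2+APAP group, 1419 ± 530 in the APAP group and 1639 ± 304 in controls 1 and 2. Of its 4 rings, the one of exons 8 to 12 gave 95.9% of the reads. Ces1d, a triglyceride hydrolase, had 7, 0 and 5 reads in dmPGE2+APAP livers, 6, 0 and 19 in APAP livers and 0 in all 3 controls. Sult2a8, a liver sulfotransferase that acts on bile acids, had 89, 62 and 80 reads in dmPGE2+APAP livers, 91, 76 and 45 in APAP livers and 116, 104 and 0 in control livers. It stood at 687 ± 57.0 CPM in the dmPGE2+APAP group, 727 ± 98.1 in the APAP group and 776 ± 34.7 in controls 1 and 2. Every dmPGE2+APAP library lay below controls 1 and 2, and the APAP libraries overlapped both. The 0 of control 3 allows up to 688 CPM.

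Aldehyde and carbonyl enzymes gave rings of very different kinds. Aldh1l1, the cytosolic 10-formyltetrahydrofolate dehydrogenase, had 17 rings, the most of any enzyme host, and none held over 30.3% of its reads. It had 58, 44 and 67 reads in dmPGE2+APAP livers, 30, 78 and 22 in APAP livers and 54, 76 and 0 in control livers. Aldh16a1, a family member that in mammals lacks the catalytic cysteine, had 1 ring of 2 exons with 57, 42 and 34 reads in dmPGE2+APAP livers, 73, 48 and 28 in APAP livers and 35, 46 and 4 in control livers. Akr1c20, an aldo-keto reductase that acts on steroids, had 89, 61 and 42 reads in dmPGE2+APAP livers, 55, 80 and 28 in APAP livers and 113, 80 and 3 in control livers. In Aldh1l1 and Akr1c20 the groups overlapped. In CPM the APAP libraries of Aldh16a1 all lay above controls 1 and 2, and its dmPGE2+APAP libraries overlapped both. Control 3, with 4 reads of Aldh16a1, stood at 917 CPM, above every other library. Aldh7a1, the lysine-pathway enzyme antiquitin, had 75 reads in all, 36 of them in control 1.

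**Figure D1:**
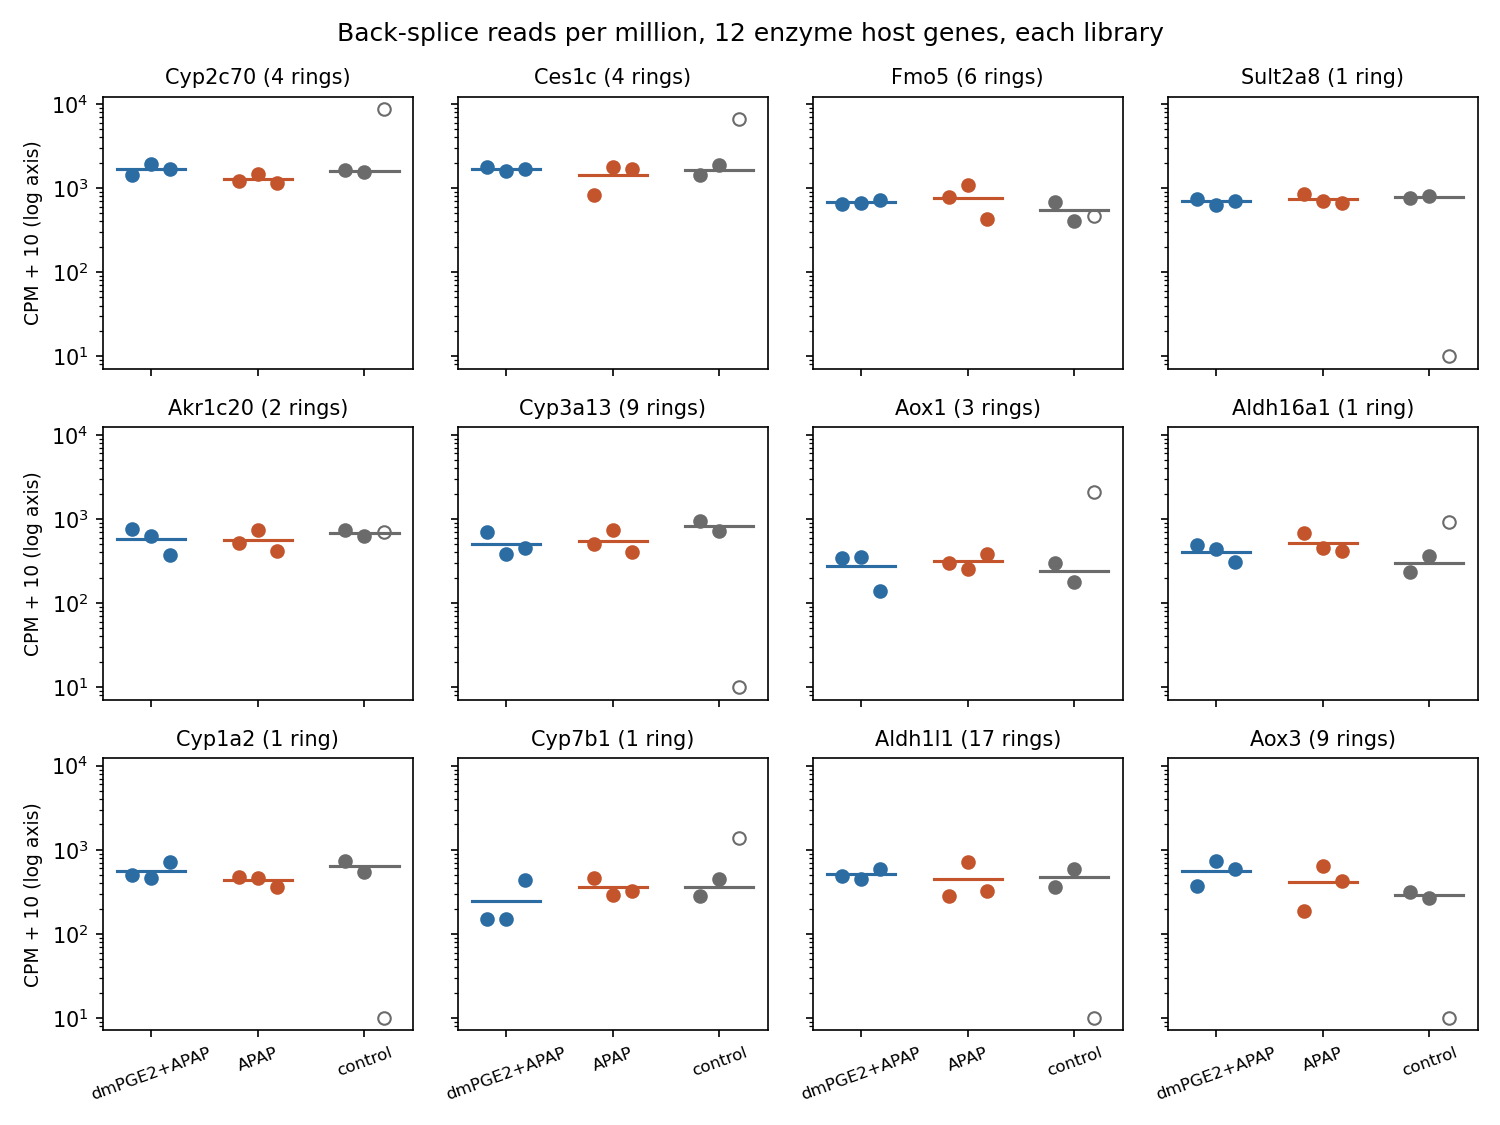
Back-splice reads per library in CPM (CPM + 10, log axis) for the 12 enzyme host genes with the highest mean CPM, 1 point per library in the dmPGE2+APAP, APAP and control groups; bars are group means without control 3, whose open points have 4362 reads behind them. The APAP points of Cyp2c70 lie below the control points. The dmPGE2+APAP points lie above those of controls 1 and 2 for Aox3 and below them for Sult2a8 and Cyp3a13. The APAP points lie above those of controls 1 and 2 for Aldh16a1 and below them for Cyp1a2. In the other panels the groups overlap. A 0 in control 3 allows up to 688 CPM by counting error, and more if it stands for a single read.

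Counts were summed over the rings of each host and compared between groups. The comparisons ask whether acetaminophen changes the rings of enzyme genes and whether dmPGE2 given before it alters that. A host was tested when at least 3 libraries had at least 5 reads, which 19 of the 44 enzyme hosts and 2358 of all hosts passed. Hosts that passed through 1 group only are among them, so the counts below describe the tested hosts and not the families. The tool was edgeR's quasi-likelihood test, with Benjamini-Hochberg adjustment over all 2358 hosts and a threshold of 0.05.

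With dmPGE2 before APAP, against APAP alone, 0 of 19 enzyme hosts passed in edgeR's test, where 3 of 2358 hosts (0.127%) did. No enzyme host had an unadjusted p under 0.05 (0 of 19), and DESeq2 and limma-voom each called 0. The log2 fold change was positive in 12 and negative in 7, with a median of 0.22, beside 0.03 over all hosts tested. The smallest p belonged to Cyp2c70 (log2 fold change 0.41 ± 0.30 SE, edgeR adjusted p = 1.00), followed in the positive direction by Cyp3a25 (1.09 ± 0.91), Cyp2c68 (2.72 ± 2.55) and Ces1c (0.26 ± 0.30). In the negative direction they were Cyp7b1 (-0.54 ± 0.58), Ces1d (-1.56 ± 2.18), Aldh16a1 (-0.33 ± 0.51) and Fmo5 (-0.18 ± 0.42). All of these intervals were wide, and none of the 8 values passed the test.

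With dmPGE2 before APAP, against saline, 0 of 19 enzyme hosts passed in edgeR's test, where 4 of 2358 hosts (0.17%) did. Again 0 of 19 had an unadjusted p under 0.05, and DESeq2 and limma-voom each called 0. The fold change was positive in 10 and negative in 9, with a median of 0.04, beside 0.20 over all hosts tested. Aox3 had the smallest p (log2 fold change 1.13 ± 0.57 SE, edgeR adjusted p = 1.00), with the dmPGE2+APAP libraries at 549 ± 181 CPM, controls 1 and 2 at 279 ± 35.6 CPM and control 3 at 0. Fmo5 (0.41 ± 0.45) and Cyp27a1 (1.11 ± 1.67) followed among hosts with reads in both groups. In the negative direction the smallest p values were those of Cyp2c70 (-0.51 ± 0.31), Cyp7b1 (-0.87 ± 0.62), Ces1c (-0.37 ± 0.31) and Cyp3a13 (-0.44 ± 0.47). Without control 3 the value was 0.05 for Cyp2c70, -0.0116 for Ces1c and -0.73 for Cyp3a13.

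With APAP against saline, 0 of 19 enzyme hosts passed in edgeR's test, where 8 of 2358 hosts (0.339%) did, and DESeq2 and limma-voom each called 0. Unadjusted p values under 0.05 were found for 3 of 19 hosts (15.8%), against 126 of 2358 (5.34%). Without control 3 they were found for 0 of 19. The fold change was negative in 13 and positive in 6, with a median of -0.34, beside 0.15 over all hosts tested. Control 3 moved the median of all hosts, which was -0.04 without it, while the enzyme median stayed at -0.34.

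Cyp2c70 had the smallest p of the enzyme hosts in that comparison, at a log2 fold change of -0.93 ± 0.32 SE (edgeR adjusted p = 0.421). Without control 3 it was -0.36 ± 0.23 SE (edgeR adjusted p = 0.914), so 1 library of 4362 reads supplied much of the difference. With library totals in place of TMM scaling it was -1.23 ± 0.33 SE, and the edgeR adjusted p of 0.0507 stayed just above the threshold. Ces1c was next among hosts with reads in both groups, at -0.63 ± 0.32 SE (edgeR adjusted p = 0.869), or -0.27 ± 0.25 SE without control 3, and Cyp2j5 (-1.16 ± 0.91) and Cyp3a25 (-1.11 ± 0.93) were also negative. Positive values with the smallest p were those of Fmo5 (0.59 ± 0.45), Aox3 (0.69 ± 0.58) and Aldh16a1 (0.62 ± 0.56). Ces1d, at 0 in all 3 controls, has no fold change, and its unadjusted p of 0.0310 had an edgeR adjusted p of 0.869. Asking for any difference among the 3 groups at once also gave 0 of 19 enzyme hosts in edgeR's test, 1 of them with an unadjusted p under 0.05, against 8 of 2358 hosts past the threshold (0.339%).

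Pericentral hepatocyte markers are given beside Cyp2c70, and 0 of the 4 tested passed edgeR's test in any of the 3 comparisons (2 with an unadjusted p under 0.05 for APAP against control, lowest adjusted p = 0.216). Their summed rings, present for 6 of 7 markers with none for Glul, lay between 3299.6 and 4295 CPM in dmPGE2+APAP livers, between 2569.7 and 3119.6 CPM in APAP livers, and at 4370.4, 4809 and 8941 CPM in control livers. Most of this sum was Slco1b2, a hepatocyte uptake transporter, and the list also holds the enzyme hosts Cyp1a2 and Cyp2e1. Periportal markers, 4 of 6 with a ring, lay between 2825 and 3319 CPM in dmPGE2+APAP livers, between 3207 and 3718 CPM in APAP livers, and at 2797, 2408 and 688 CPM in control livers. Most of this sum was Slc7a2 (1830 reads) and Cps1 (863 reads). For APAP against control, Slc7a2 and Cps1 had positive log2 fold changes (0.65 and 0.66), and Pck1 and Hal negative ones (-2.64 and -0.91). Of the 4 periportal markers tested, 0 passed edgeR's test in any of the 3 comparisons. Fewer pericentral cells and less circular RNA per cell cannot be told apart in whole liver, and the part of these markers in the Cyp2c70 values was not tested.

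**Figure D2:**
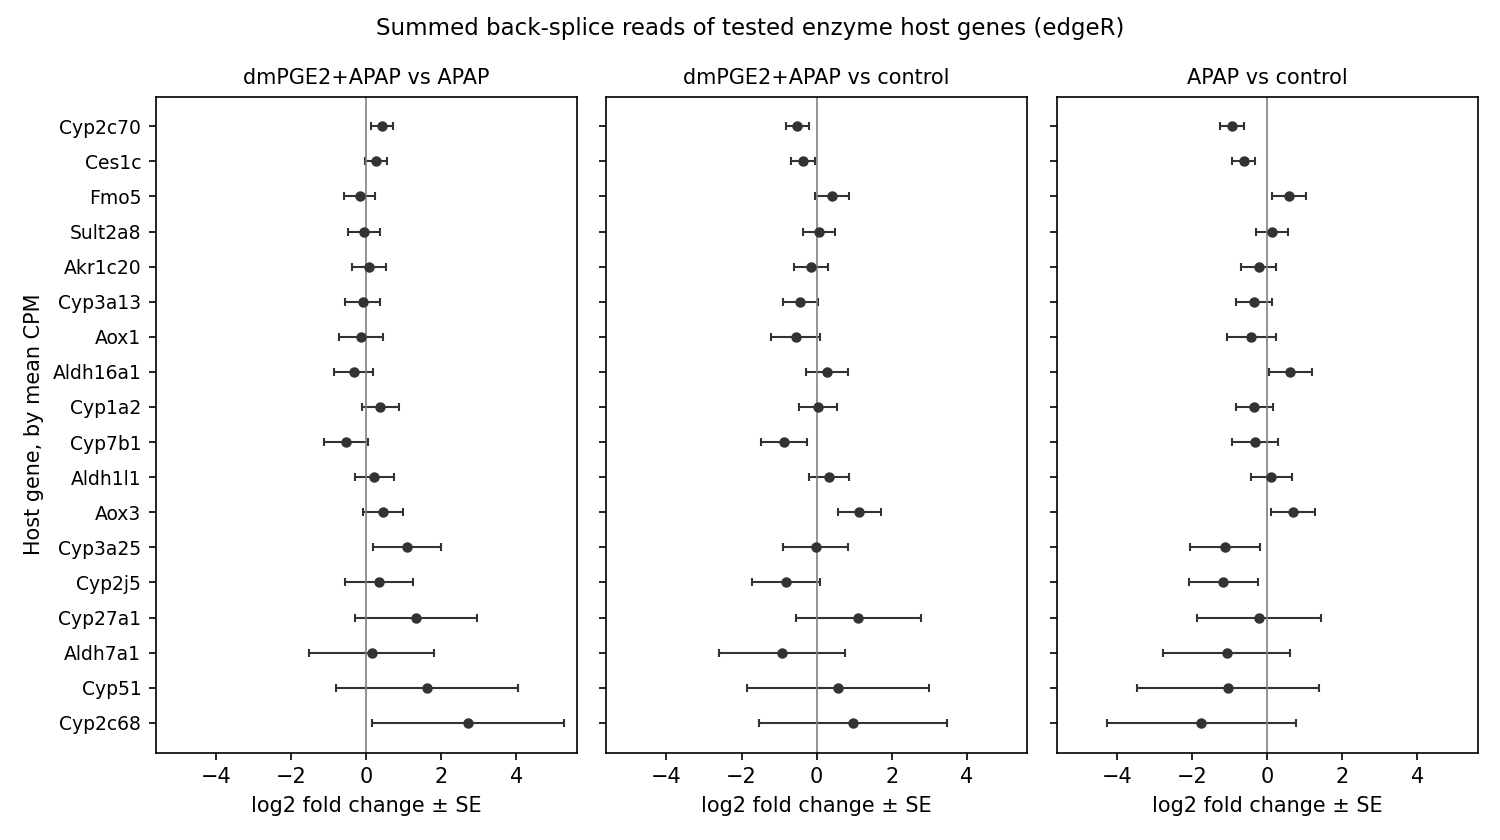
Log2 fold change of summed back-splice reads with its standard error (bars, edgeR) for 18 tested enzyme hosts, ordered by mean CPM from top to bottom, in 3 comparisons; Ces1d is left out because its controls are all at 0. No host passed the adjusted threshold in any of the 3 panels, and the bars widen towards the hosts with few reads.

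Single rings were tested in the same way. Of the 107 enzyme rings, 37 passed the read filter, among 4331 rings in all. As with the hosts, rings that passed through 1 group only are among them, so the values below describe the tested rings. In edgeR's test 0 of 37 passed for dmPGE2+APAP against APAP (background 3 rings, 0.0693%), 0 of 37 for dmPGE2+APAP against control (5 rings, 0.115%), 0 of 37 for APAP against control (6 rings, 0.139%) and 0 of 37 for any difference among groups (9 rings, 0.208%). Unadjusted p values under 0.05 numbered 0, 1, 5 and 1 of 37 in that order, beside 162, 188, 219 and 115 of all 4331 rings, or 3.74%, 4.34%, 5.06% and 2.66%. DESeq2 and limma-voom called 0 enzyme rings in the pairwise comparisons.

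Aldehyde oxidase rings were among those with the smallest p values, and none of them passed the threshold. For novel_circ_0007324 and novel_circ_0007332 the APAP libraries were enough by themselves to meet the read filter, and for novel_circ_0007329 the dmPGE2+APAP libraries were. Some libraries of other groups also reached 5 reads, but without the group where it is high each ring would have missed the filter. The p values and group separations of these rings are description only. The intronic Aox1 ring novel_circ_0007324 had 6, 0 and 4 reads in dmPGE2+APAP livers, 14, 18 and 8 in APAP livers and 0 in all 3 control livers. Every APAP library thus lay above every library of the other groups, although the 0 of control 3 means little at its depth (unadjusted p = 0.0132 against control, edgeR adjusted p = 0.801). The main exonic Aox1 ring, shown above by its junction of exons 16 and 11, had 19, 34 and 11 reads in dmPGE2+APAP livers, 9, 9 and 18 in APAP livers and 45, 22 and 9 in control livers. Its log2 fold change for APAP against control was -1.50 ± 0.70 SE (edgeR adjusted p = 0.801), and -0.88 ± 0.70 SE without control 3. The host sum of Aox1, which overlapped between groups, adds to these rings a further exonic one, novel_circ_0007328. That ring had 15 reads in dmPGE2+APAP livers, 8 in APAP livers and 0 in control livers. The Aox3 ring novel_circ_0007332 had 7, 6 and 0 reads in dmPGE2+APAP livers, 8, 14 and 5 in APAP livers and 0 in all controls. Another Aox3 ring, novel_circ_0007329 of exons 2 to 5, had 13, 29 and 18 reads in dmPGE2+APAP livers, 0, 20 and 0 in APAP livers and 5, 0 and 0 in control livers (log2 fold change 3.45 ± 1.52 SE for dmPGE2+APAP against control, edgeR adjusted p = 0.960).

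Among the other enzyme rings, the Cyp3a25 ring novel_circ_0011072 was at 0 in all 3 APAP livers, with 9, 0 and 0 reads in dmPGE2+APAP livers and 13, 10 and 0 in control livers. The abundant Fmo5 ring had a log2 fold change of 0.80 ± 0.49 SE for APAP against control, and the Cyp2c70 ring of exons 4 to 7 had -1.01 ± 0.52 SE (edgeR adjusted p = 0.819 and 0.801). A second Akr1c20 ring, novel_circ_0002706, was singled out after its values were seen. It had 16, 13 and 3 reads in dmPGE2+APAP livers and 0 reads in the other 6 livers, missed the read filter, and had an edgeR adjusted p of 0.602 against APAP when no filter was used. Its floor of 3 counts was at most 43.3 CPM in the APAP libraries and controls 1 and 2.

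Among the remaining abundant rings, the Ces1c ring of exons 8 to 12 had 192, 156 and 182 reads in dmPGE2+APAP livers, 88, 194 and 112 in APAP livers and 208, 225 and 29 in control livers. The main Fmo5 ring had 60, 44 and 79 reads in dmPGE2+APAP livers, 72, 104 and 29 in APAP livers and 78, 41 and 2 in control livers. The main Akr1c20 ring had 73, 48 and 39 reads in dmPGE2+APAP livers, 55, 80 and 28 in APAP livers and 113, 80 and 3 in control livers. In CPM the dmPGE2+APAP libraries of this Akr1c20 ring all lay below the 3 controls, while the host sum, which adds novel_circ_0002706, overlapped. The main Cyp3a13 ring, of exons 5 to 9, had 49, 22 and 31 reads in dmPGE2+APAP livers, 49, 46 and 20 in APAP livers and 66, 56 and 0 in control livers. Its lesser neighbour novel_circ_0010985 had 11, 5 and 13 reads in dmPGE2+APAP livers, 2, 20 and 7 in APAP livers and 48, 14 and 0 in control livers, the highest value being control 1. Aldh1l1, by contrast, was spread over many rings of low count. Its ring novel_circ_0012506 had 15, 10 and 29 reads in dmPGE2+APAP livers, 0, 17 and 0 in APAP livers and 11, 6 and 0 in control livers, with a log2 fold change of 1.57 ± 1.31 SE for dmPGE2+APAP against APAP (edgeR adjusted p = 1.00). In CPM its dmPGE2+APAP libraries lay above controls 1 and 2, and control 3 could not have shown this level.

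Many enzyme rings were seen in 1 group only. This held for 54 of 107 enzyme rings (50.5%), 20 of them in dmPGE2+APAP livers, 15 in APAP livers and 19 in control livers, against 42.9% of the other 11205 rings. Of these 54 enzyme rings, 2 had at least 20 reads. A single library held all reads of 47 of the 107, and the smallest count above 0 in the table was 2.

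Each end of a ring was compared with annotated exon ends. Both ends matched for 89 of 103 exonic enzyme rings (86.4%), against 93.8% of 10403 exonic rings of other single genes. The matched enzyme rings had a median of 4 exons, as did the others, and their exons summed to a median of 589 bases, against 497. The flanking introns were shorter, with a median of 3443 bases upstream (against 6610.5) and 3032 bases downstream (against 4898). The first exon of the ring was exon 2 of its transcript in 33.7% of the matched enzyme rings, against 29.3% of the others. These are descriptions of annotation, and rings of 1 host share their introns.

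Some of the unmatched enzyme rings ended inside the gene's last exon. A start at an annotated exon and an end within the last exon was found for 9 of 103 exonic enzyme rings (8.74%), from 7 hosts, against 2.78% of other single-gene exonic rings. These 9 rings held 13.3% of the exonic enzyme reads, most of them from Cyp2c70, against 1.23% for the others. The hosts were Cyp2c70, Cyp27a1, Cyp3a13, Cyp2j9, Cyp20a1, Ces1d and Ugt2b34.

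Of these hosts, Cyp2c70 had the most reads in such rings. All 4 of its rings begin at the same base, the start of exon 4 at chr19:40167623. They end at the end of exon 6 (207 reads), at the end of exon 7 (367 reads) and at a pair of positions 12 bases apart inside exon 9, the last exon (254 and 583 reads). The shared capitals GCTCCCCCTGTGATCCTAGC printed above are this common start. The ring with the most reads, novel_circ_0006253, had 77, 71 and 88 reads in dmPGE2+APAP livers, 66, 71 and 36 in APAP livers and 94, 65 and 15 in control livers. Its neighbour novel_circ_0006254, ending 12 bases away, had 38, 36 and 38 reads in dmPGE2+APAP livers, 26, 16 and 15 in APAP livers and 47, 31 and 7 in control livers, with a log2 fold change of 0.80 ± 0.58 SE for dmPGE2+APAP against APAP (edgeR adjusted p = 1.00). The other 2 rings end at exon boundaries. That of exons 4 to 7 had 33, 47 and 44 reads in dmPGE2+APAP livers, 27, 51 and 15 in APAP livers and 70, 69 and 11 in control livers, and that of exons 4 to 6 had 25, 35 and 23 reads in dmPGE2+APAP livers, 12, 21 and 13 in APAP livers and 40, 33 and 5 in control livers. Control 1 held the highest count of both. In CPM the APAP libraries of the ring of exons 4 to 6 lay below all libraries of both other groups.

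The sharing of starts varied between hosts. All 4 rings of Cyp2j9 shared 1 start, and 6 of 9 Cyp3a13 rings did, with 76.2% of its reads. Aox3, by contrast, had 9 different starts in 9 rings, and Aldh1l1 had 8 starts and 12 ends in 17 rings. Sult2a8 has its only ring, classed as intronic, starting at exon 6 and running 459 bases past the end of that exon. The only ring assigned to Cyp2e1, the main P450 of acetaminophen bioactivation, had 13 reads in 1 APAP library and lies on the strand opposite to the gene, as did 0.539% of the rings of other single genes. No back-splice read in the sense of Cyp2e1 was therefore listed.

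**Figure D3:**
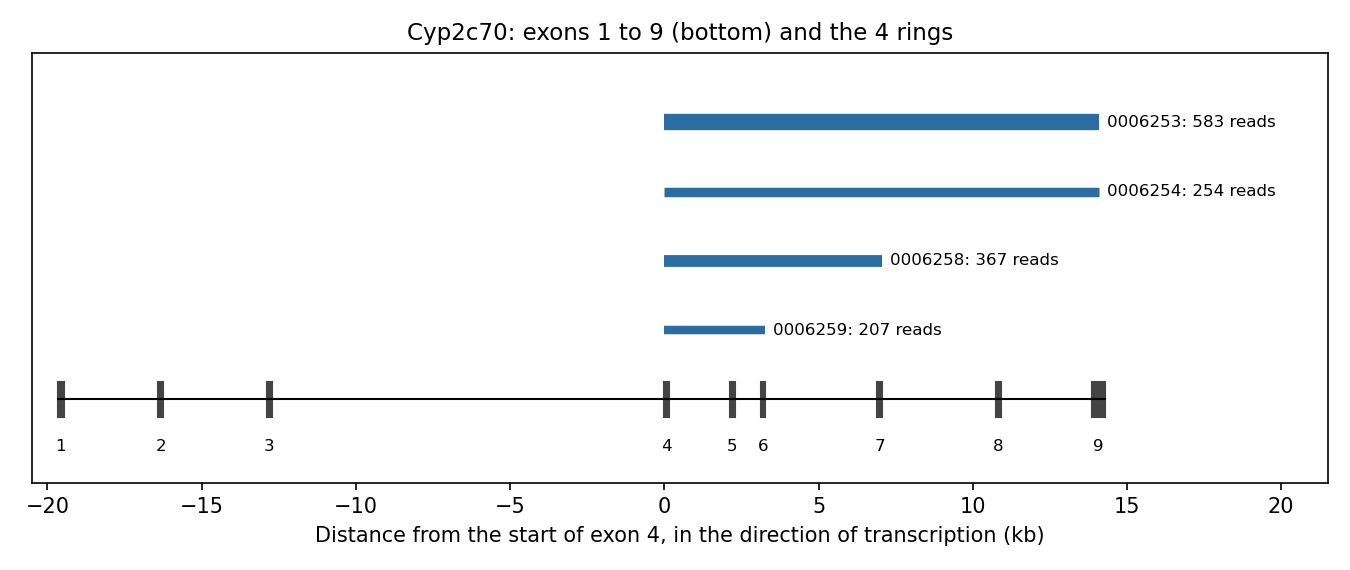
Positions of the 4 Cyp2c70 rings (blue bars, thickness by total reads) above the exons of the gene (dark boxes numbered 1 to 9), as distance in kb from the start of exon 4 in the direction of transcription. All 4 rings start at exon 4, and those with 583 and 254 reads end inside exon 9.

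The table also lists, for each ring, reads that touch its splice sites without spanning the back-splice, which include linear RNA of the gene and are called non-junction reads. The list could be read for 61 of 107 enzyme rings, and 46 had been turned into 1 number, among them the top rings of Ces1c, Fmo5 and Cyp1a2. Over all rings 15.5% of lists were lost. A list whose values after the first all have 3 digits cannot be told from 1 number, so the loss depended on the values. The enzyme rings left are therefore not a random part of the 107. Values in all 8 deep libraries existed for 6 enzyme rings among 1125 rings in all. In control 3, non-junction reads were far in excess, and the circular share over 391 rings was 6.14%, against 66.1% to 75.7% in the other libraries, so control 3 was left out of these fits. Controls 1 and 2 are then the only controls, and the pooled spread of all groups is assumed to hold for them.

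Of the 6 enzyme rings that could be tested for non-junction reads, only those of Cyp2c70 passed, and only for dmPGE2+APAP against control. At novel_circ_0006253 there were 166, 131 and 294 in dmPGE2+APAP livers, 77, 136 and 71 in APAP livers and 73 and 73 in controls 1 and 2. Every dmPGE2+APAP library was thus above both controls, and the third stood highest. The log2 fold change of dmPGE2+APAP against control was 1.47 ± 0.32 SE (edgeR adjusted p = 0.00101), and that of the neighbouring ring novel_circ_0006254, which shares nearly all of these reads, was 1.49 ± 0.32 SE (edgeR adjusted p = 0.000955). They are 1 observation, counted as 2 of 6 enzyme rings beside 17 of 1125 rings (1.51%). Without dmPGE2+APAP 3 the values were 1.04 and 1.06 (edgeR adjusted p = 0.150 and 0.133), and without control 1, with 1 control left, 1.40 and 1.43 (0.133 and 0.128), so the call rests on single libraries.

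Against APAP alone, the non-junction reads of Cyp2c70 had log2 fold changes of 0.97 ± 0.27 and 0.99 ± 0.27 SE in dmPGE2+APAP livers (edgeR adjusted p = 0.0944 for both), and 0 of 6 enzyme rings and 0 of 1125 rings (0.0%) passed. Unadjusted p values under 0.05 were found for 2 of 6 and 74 of 1125. Without APAP 2 both Cyp2c70 rings passed (log2 fold change 1.39 and 1.41, edgeR adjusted p = 0.0105). For APAP against control the values were 0.50 ± 0.32 and 0.50 ± 0.31 SE, and 0 of 6 enzyme rings passed in edgeR's test, where 28 of 1125 rings (2.49%) did. There the count with an unadjusted p under 0.05 was 0 of 6, beside 171 of 1125 (15.2%). The other 4 rings, of Akr1c20, Aldh16a1, Cyp7b1 and Aox1, passed in no comparison. Aox1 had 176, 106 and 124 non-junction reads in dmPGE2+APAP livers, 156, 135 and 85 in APAP livers and 98 and 105 in controls 1 and 2, with log2 fold changes of 0.44 ± 0.31 and 0.41 ± 0.31 SE against control.

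**Figure D4:**
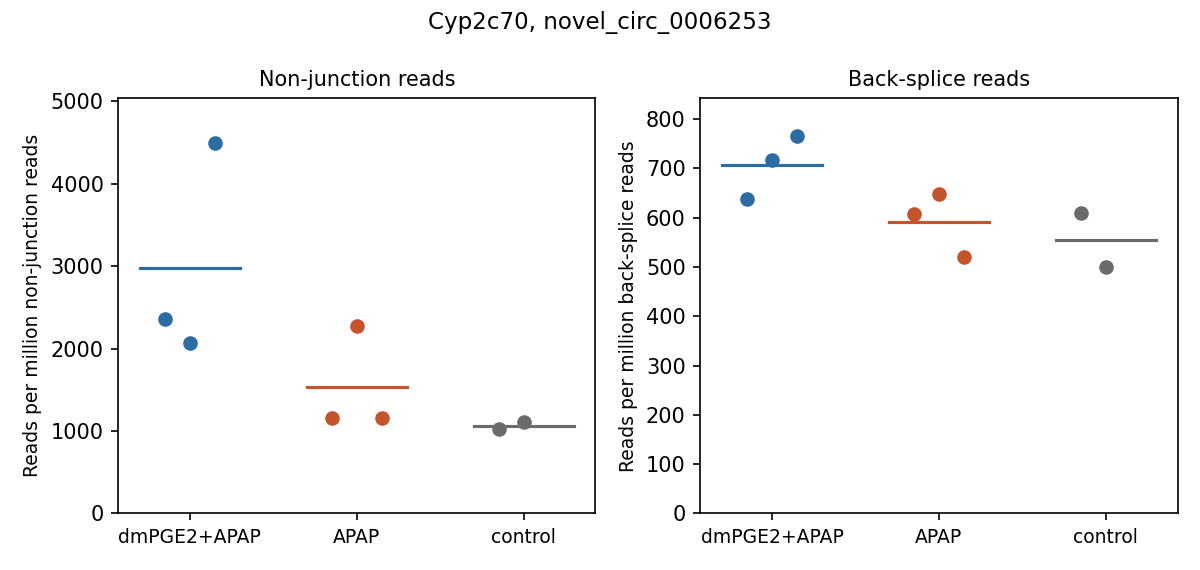
Non-junction reads (left, per 1000000 non-junction reads over 1125 rings) and back-splice reads (right, CPM) at the Cyp2c70 ring novel_circ_0006253, 1 point per deep library in the dmPGE2+APAP, APAP and control groups, with group means as bars; control 3 is not drawn. The non-junction points of all 3 dmPGE2+APAP libraries lie above both controls, and their back-splice points, at 707 ± 64.4 CPM on average, lie above both controls by less, at 554 ± 76.7 CPM.

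The circular share sets the 2 kinds of read against each other, as the percentage 2J/(2J + N) of J junction and N non-junction reads. At novel_circ_0006253 it was 45.9% ± 7.54 in dmPGE2+APAP livers (SD, n = 3), 54.9% ± 7.19 in APAP livers (n = 3) and 68.0% ± 5.65 in controls 1 and 2 (n = 2). The log2 ratio differed by -1.34 ± 0.56 SE between dmPGE2+APAP and control (limma adjusted p = 0.517). Every dmPGE2+APAP and APAP library lay below both controls, but the difference did not pass the test. The same order held over all 1125 rings together. Their share was 61.2% to 63.2% in dmPGE2+APAP livers, 54.8% to 64.2% in APAP livers, and 67.5% and 66.4% in controls 1 and 2. The median log2 ratio over all 1125 rings was -0.28 for dmPGE2+APAP against control and -0.42 for APAP against control. For Cyp7b1 the share was 27.7% ± 10.6 in dmPGE2+APAP livers, 40.0% ± 3.69 in APAP livers and 44.7% ± 11.1 in controls 1 and 2. For Aox1 it was 24.0% ± 13.2 in dmPGE2+APAP livers, 17.3% ± 10.8 in APAP livers and 38.7% ± 13.0 in controls 1 and 2 (log2 ratio -1.71 ± 0.78 SE for APAP against control, limma adjusted p = 0.458). Akr1c20 was the most circular of the 6 sites, at 69.2% ± 10.7 in dmPGE2+APAP livers, 69.9% ± 19.2 in APAP livers and 80.7% ± 1.25 in controls 1 and 2. Aldh16a1 averaged 41.9% ± 5.45 in dmPGE2+APAP livers, 40.3% ± 12.7 in APAP livers and 41.1% ± 15.03 in controls 1 and 2. These 6 sites do not stand for the other enzyme rings, whose readable values came from fewer libraries. Among those, the share was 0.275% for Ces1c novel_circ_0013979 in dmPGE2+APAP 1 and 100% for Cyp2j8 novel_circ_0010548 in dmPGE2+APAP 3.

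In limma's test of the circular share, 0 of 6 enzyme rings passed for dmPGE2+APAP against APAP, where 0 of 1125 rings (0.0%) did. The same held for dmPGE2+APAP against control (0 of 6, beside 0 of 1125, 0.0%), with unadjusted p values under 0.05 for 2 enzyme rings, both of Cyp2c70, and 101 rings in all. For APAP against control 0 of 6 passed, where 1 of 1125 rings (0.0889%) did.

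**Figure D5:**
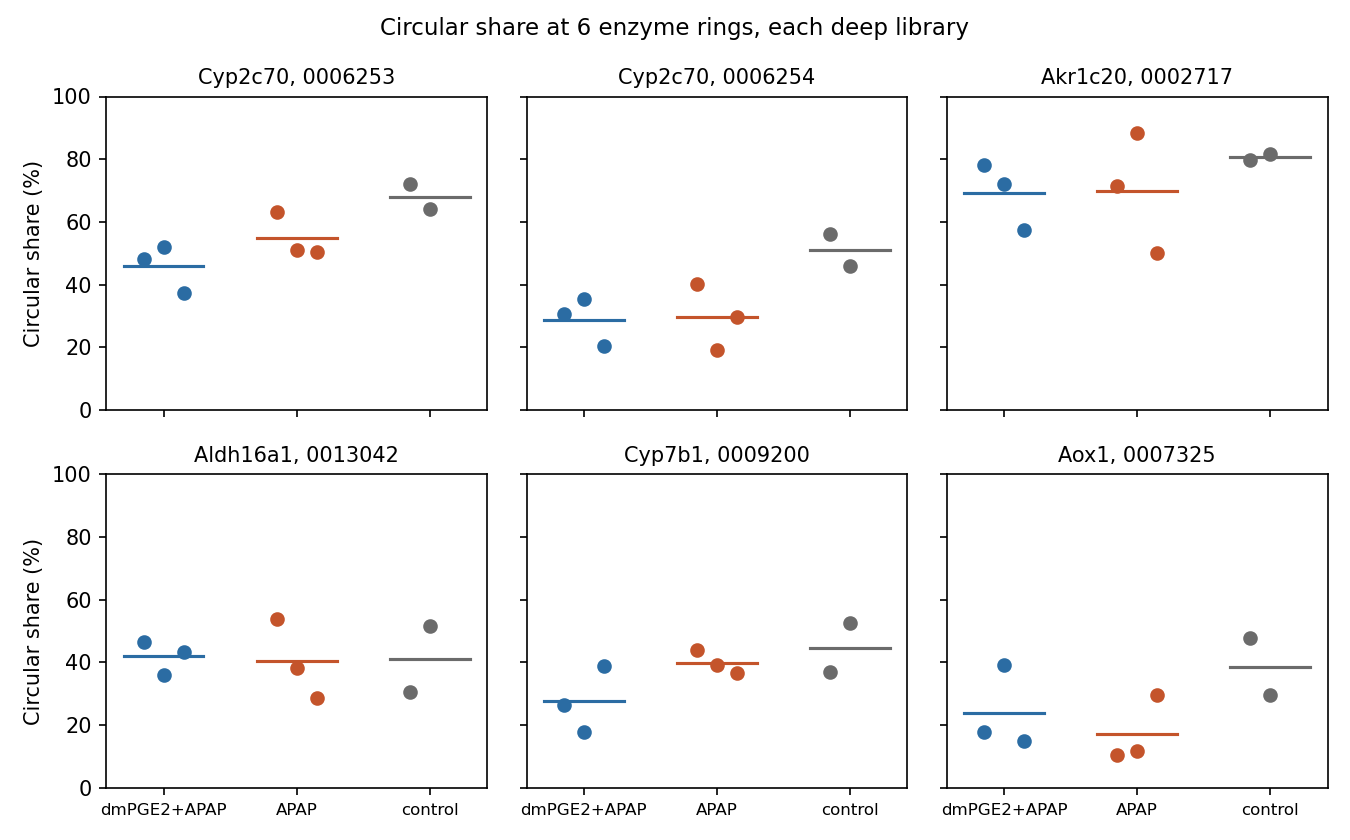
Circular share in percent at the 6 enzyme rings that have non-junction reads in all 8 deep libraries, 1 point per library in the dmPGE2+APAP, APAP and control groups, with group means as bars; control 3 is not drawn. The Akr1c20 ring is the most circular, and the Cyp2c70 ring novel_circ_0006253 has its highest points in controls 1 and 2.

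Partner genes of the same pathways were followed as a list of 59 nuclear receptors, redox partners, glutathione enzymes, other oxidoreductases and transporters. Of these, 26 had a ring and 16 were tested, and 0 of 16 passed in edgeR's test in the 3 comparisons (unadjusted p under 0.05 for 1 host, in APAP against control). The most abundant were Dpyd (dihydropyrimidine dehydrogenase, 3044 reads), Slco1b2 (2792), Abcc2 (the canalicular conjugate pump, 2466), Dpys (dihydropyrimidinase, 869), Xdh (xanthine dehydrogenase, a relative of the aldehyde oxidases, 830) and Gclc (the catalytic subunit of glutathione synthesis, 721). The receptors Nr1i2 and Ahr had rings in few libraries, and Nr1i3, Nfe2l2 and Keap1 had none. Rings given to several genes jointly do not count in these lists. Among them are novel_circ_0007606, whose genes include Ugt1a9, Ugt1a6a and Ugt1a6b, and novel_circ_0009967, given to Aldh4a1 and Gm21969. Of 16 enzymes listed for the handling of acetaminophen itself, 3 had a ring listed to them alone (Cyp1a2, Aox1 and, on the opposite strand only, Cyp2e1). Of these, 0 of the 2 tested passed. Of 8 sterol and bile acid P450s 5 had a ring and 0 of 4 tested passed, of 12 fatty acid P450s 5 had a ring and 0 of 1 tested passed, and of 11 mitochondrial or amino acid aldehyde enzymes 2 had a ring and 0 of 2 tested passed. Retinoid enzymes had a ring in 2 of 8 genes and none was tested.

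Of the 25 enzyme hosts that were not tested, the highest total was 26 reads (Ces1g). Ugt3a2, a UDP-glycosyltransferase, had 19 reads, all in controls 1 and 2. Cyp39a1, the 24-hydroxycholesterol 7-alpha-hydroxylase, had 12 reads, likewise in controls 1 and 2, and Cyp2f2, a P450 of airways and liver, had 11 reads in APAP livers. Akr1c6, the near copy of Akr1c20, had 12 reads in 2 libraries, 1 of them control 3.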

How the data were processed

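The labels' protocols describe rRNA-depleted total RNA (1 µg) and dUTP strand marking, and name no digestion of linear RNA. Per the file headers, the deposited data are a whole-number count of junction reads for every ring and library, left unscaled by the authors, and lists of junction and non-junction reads. Per the submitters' processing notes, HISAT2 and build GRCm38 (mm10) were involved, in what role is not said; the ring caller is not given in the sources used here. Columns coded BC were taken as controls by elimination, and 9 other columns of values per library were not used.

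Counts were tested with edgeR 4.0.16 (TMM, quasi-likelihood) after a filter of 5 reads in 3 libraries, and circular shares with limma 3.58.1 on log2((2J + 0.5)/(N + 0.5)). DESeq2 1.42.0, limma-voom, other filters and scalings, and leaving out each library were alternatives, some added after seeing the data. The fits were tested on simulated data. For 1753 rings (15.5%) the non-junction list had become 1 number and was left out. Intervals and floors cover counting error only. Annotation and junction bases come from GENCODE M21, read with Python 3.11.15.

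The enzyme families, gene lists and rules were chosen with earlier results of these data known. Named are the 12 hosts and 10 rings with the highest mean CPM, any past the threshold, and per comparison up to 4 with the smallest p in each direction, with the acetaminophen-handling hosts and the 6 highest partner hosts.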

Additional observations from a re-analysis of the deposited data

How the results depend on the processing

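The counts of enzyme hosts, rings and circular shares past the threshold were 0 under every alternative run. For non-junction reads the count of enzyme rings past the threshold in dmPGE2+APAP against control was 2, ranged between 0 and 2 when 1 library was left out, and was 0 with all 9 libraries. In dmPGE2+APAP against APAP it ranged between 0 and 2. Counting exonic circRNAs only, the enzyme share in the dmPGE2+APAP group was 0.887%.

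With control 3 added to the non-junction fits, log2 fold changes against control reversed for Cyp2c70 (-1.63 and -1.62 in dmPGE2+APAP, -2.60 and -2.60 in APAP) and Cyp7b1 (-1.33 in dmPGE2+APAP). So did the log2 circular ratios of Cyp2c70 (1.36 and 1.32 in dmPGE2+APAP, 1.89 and 1.36 in APAP), Cyp7b1 (1.12 in dmPGE2+APAP) and Akr1c20 (2.12 in APAP). Control 3 holds 3889 non-junction reads at novel_circ_0006253 against 73 in each other control.

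Leaving out 1 library at a time reversed some values that had not passed. For dmPGE2+APAP against APAP the host sums ranged between -0.0126 and 0.49 (Ces1c), -2.17 and 0.30 (Ces1d) and -0.47 and 0.19 (Fmo5), the rings between -0.59 and 0.067 (Fmo5) and -0.50 and 0.0192 (Aldh16a1), non-junction reads between -0.17 and 0.44 (Akr1c20), and the circular ratio between -0.90 and 0.55 (Akr1c20), -0.24 and 0.52 (Aldh16a1) and -0.43 and 0.32 (Cyp2c70, novel_circ_0006254). For dmPGE2+APAP against control the ranges were -0.84 to 0.0506 (Cyp2c70 host sum), -1.33 to 0.19 (Cyp3a13 ring novel_circ_0010985), -0.10 to 0.29 (Cyp7b1 non-junction reads) and -0.57 to 0.71 (Aldh16a1 circular ratio). For APAP against control they were -0.43 to 0.20 (Akr1c20) and -0.0164 to 0.75 (Aldh16a1) in non-junction reads and -1.40 to 0.0489 in the circular ratio (Akr1c20). The cause was not tested.

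Same-numbered libraries of the dmPGE2+APAP and APAP groups did not vary together (correlations 0.0111, 0.0057 and 0.0020 in host sums), and 2 of 6 correlated best with their own number. The replicate block gave 0 enzyme calls in host sums, rings, non-junction reads and circular share; over all hosts it gave 8 calls against 3, over all rings 6 against 3. No paired analysis was possible for comparisons with control, because the control columns carry no label numbers. Fitting the 6 libraries without controls gave 0 enzyme calls. Depth limits the hosts with few reads: Cyp27a1, with 73 reads, had a standard error of 1.67 on the log2 scale.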
